A study of Mus musculus with 6 samples.

Results

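The genes described here encode subunits of voltage-gated, leak and ligand-gated ion channels. They were taken by gene symbol, as all genes whose symbol on the array platform marks a potassium channel (Kcn), a sodium channel (Scn), a calcium channel (Cacna, Cacnb or Cacng), a GABA-A receptor (Gabr), an ionotropic glutamate receptor (Gria, Grik or Grin), a glycine receptor (Glra or Glrb) or a nicotinic acetylcholine receptor (Chrn). This gave 169 of the 18193 genes measured, and 104 of the 169 had several probe sets, of which the brightest over all arrays was used. Probe sets of a gene often disagreed: of 54 genes described below, 43 had several, and in 26 of the 43 at least 1 other probe set, often a dim one, differed from ESC in the opposite direction in EpiSC-like cells. Each value below is therefore that of the probe set used, unless another is named. Of the 169, 3 are noncoding transcripts that carry such a symbol (Kcnq1ot1, Kcnmb4os1 and Kcnmb4os2).

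RNA was measured on 6 Affymetrix 3' expression arrays, with 2 arrays in each of 3 groups. All cells came from OLV2-1, a single mouse embryonic stem cell line in which the fluorescent protein Venus is knocked into the Oct4 (Pou5f1) locus, and all were sorted as Venus-positive. Undifferentiated embryonic stem cells (ESC) were in addition taken as CD31-positive, CD31 being the surface protein encoded by Pecam1. The epiblast stem cell-like (EpiSC-like) group held Venus-positive, CD31-negative cells on day 3 of SFEBq, a neural induction protocol in which cells reaggregate in serum-free suspension. The day 7 group was the Venus-positive fraction of aggregates on day 7 of that protocol, with no CD31 gate named. Dissociation also differed: ESC and day 3 cells were trypsinised, rested for 1 hour and stained with antibody, whereas day 7 cells were released with EDTA alone. Time in culture and gate, and for day 7 also dissociation, therefore cannot be told apart. Nothing in the labels states that replicate arrays stem from independent cultures, and the p-values then cover only the variation among these samples, which may be technical.

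Ion channels set and change the membrane voltage of a cell. Potassium leak channels and inward rectifiers hold the resting potential, voltage-gated sodium, calcium and potassium channels produce and end action potentials, and receptors for GABA, glycine, glutamate and acetylcholine open when a transmitter binds. Most of these genes are best known from neurons and muscle, and many neuronal channel genes are held silent elsewhere by the repressor REST, which is abundant in embryonic stem cells. Stem cells nevertheless carry resting potassium conductances, and GABA-A receptors have been described in embryonic stem cells.

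In all, 4 differences of these genes passed the test, in 3 genes. In EpiSC-like cells against ESC, 1.78% of the 169 genes were called, against 1.90% of all genes. At day 7 against ESC the share was 0.592%, against 1.04% of all genes. Between day 7 and EpiSC-like cells it was 0, against 0.0385%. Kcnk1, a leak potassium channel, Kcns3, an electrically silent potassium channel subunit, and Gabra3, a GABA-A receptor subunit, were higher in EpiSC-like cells than in ESC, and Kcns3 was also higher at day 7 than in ESC. These calls were thin: leaving out any 1 of the 6 arrays, a pseudocount of 1 or a block for the replicate number ended each of the 4, though no difference changed sign. The adjusted p with 1 array left out was between 0.0663 and 0.237. The 250 bases before the RefSeq transcription starts of these genes (assembly GRCm38.p6) are shown because these are the genes that were called. Sequences run 5' to 3' on the strand of the gene, with each CG dinucleotide in capitals. Kcnk1 lies on the plus strand (chr8:125994852-125995101), Kcns3 on the minus strand with both of its listed starts (upstream, chr12:11150843-11151092, and downstream, chr12:11150374-11150623), and Gabra3 on the minus strand, with the upstream of its 2 listed starts (chrX:72656920-72657169).
Kcnk1: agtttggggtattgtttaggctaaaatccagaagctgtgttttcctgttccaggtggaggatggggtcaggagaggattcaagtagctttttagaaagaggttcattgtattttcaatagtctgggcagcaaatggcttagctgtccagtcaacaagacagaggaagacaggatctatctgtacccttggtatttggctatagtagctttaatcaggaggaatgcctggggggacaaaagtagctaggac
Kcns3, upstream start: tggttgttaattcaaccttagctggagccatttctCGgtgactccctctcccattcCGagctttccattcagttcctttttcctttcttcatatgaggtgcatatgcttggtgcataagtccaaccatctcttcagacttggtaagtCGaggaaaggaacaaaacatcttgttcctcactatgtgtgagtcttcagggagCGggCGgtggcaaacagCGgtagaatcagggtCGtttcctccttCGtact
Kcns3, downstream start: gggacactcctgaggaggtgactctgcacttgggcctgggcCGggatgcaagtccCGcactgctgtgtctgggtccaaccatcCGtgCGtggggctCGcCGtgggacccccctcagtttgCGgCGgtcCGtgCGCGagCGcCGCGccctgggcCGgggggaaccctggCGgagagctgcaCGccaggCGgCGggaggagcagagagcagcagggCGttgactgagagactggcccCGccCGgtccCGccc
Gabra3, upstream start: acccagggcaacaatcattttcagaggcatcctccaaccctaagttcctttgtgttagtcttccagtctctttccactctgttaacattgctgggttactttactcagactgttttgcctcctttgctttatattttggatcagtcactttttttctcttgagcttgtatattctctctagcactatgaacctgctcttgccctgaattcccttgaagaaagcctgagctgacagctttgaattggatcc
The windows differ in CG content. The Kcnk1 window held 0 CG dinucleotides and the Gabra3 window 0, whereas the Kcns3 windows held 8 at the upstream and 23 at the downstream start. RefSeq promoters were found for 129 of the 169 genes, 169 promoters in all. Their median was 8 CG dinucleotides in these 250 bases (quartiles 3 and 17), against 6 (quartiles 2 and 16) over all 32851 promoters in the table. A window without any CG, as in Kcnk1 and Gabra3, was found in 2.96% of the promoters of these genes and in 7.87% of all promoters. The motif TTCAGCACC, the left part of the RE1 element that REST binds, was searched on both strands of the window from 250 bases before to 50 after each start. It was found in 0 of the 169 promoters and in 0.371% of all promoters, which says only that these letters are not in these windows.

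Signals are the linear intensities of the deposited table, in arbitrary units. A difference is a difference of group means of log2(signal + 16), given with its standard error from limma, and this scale understates changes of dim genes. A gene is called when its Benjamini-Hochberg adjusted p from limma, over all 18193 genes, is under 0.05. Signals of different probe sets depend on the probes and are not compared as transcript amounts. The arrays fell into sets that follow the replicate number: the highest signal was 30793 to 36841 on the replicate 1 arrays and 63296 to 66643 on the replicate 2 arrays, and the values within each set are given beside each called gene. The spiked poly-A control lys read 247 to 288 on 4 arrays but 41.3 on the second ESC array and 20.4 on the second EpiSC-like array. The log2 ratio of 3' to 5' actin probes, a sign of RNA integrity, was 0.456 to 0.585 on the ESC and EpiSC-like arrays and 0.708 and 0.940 at day 7. The same ratio of Gapdh probes did not set day 7 apart. It was 0.005 and -0.297 in ESC, -0.038 and -0.356 in EpiSC-like cells and -0.115 and -0.185 at day 7. The part of these differences in the results below was not tested.

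Most channel and receptor genes gave low signals in all 3 groups. The median signal was 31.6 over the 169 genes and 173 over all genes. At least 1 group mean reached the median level of all genes (7.54 on the log2 scale) for 15 of the 169 genes, 8.88%, against 54.4% of all genes. The mean over 6 arrays lay in the lowest 25% of all genes for 84 of them, 49.7%. The 15 brighter genes were the leak channel genes Kcnk1, Kcnk5 and Kcnk6, the voltage-gated potassium channel genes Kcnd1, Kcnh2 and Kcnh3, the inward rectifier gene Kcnj11, the calcium channel genes Cacna1a, Cacna1b, Cacna2d2 and Cacng7, the nicotinic receptor genes Chrna7 and Chrna9, the kainate receptor gene Grik3, and the noncoding Kcnq1ot1. No sodium channel, GABA-A, AMPA, NMDA or glycine receptor gene was among them. In bulk samples such as these, fewer cells expressing a gene and less RNA per cell cannot be told apart.

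**Figure D1:**
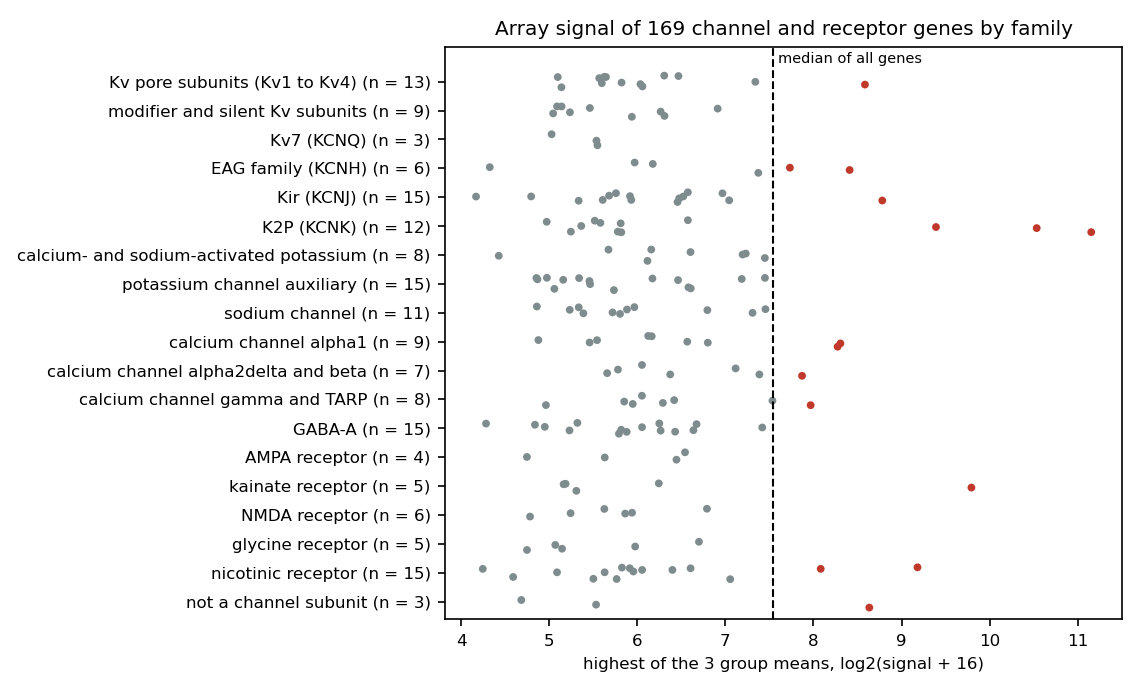
Highest of the 3 group means of log2(signal + 16) for each of the 169 genes, by family (n, its number of genes), with 15 genes in red at or right of the dashed line, the median of all genes at 7.54. Most genes lie left of the line, and the K2P genes Kcnk1 and Kcnk5 reach furthest right.

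The 2 arrays of a group also differed more in these genes than over all genes. The median absolute log2 difference between replicates was 0.357, 0.413 and 0.403 for the 169 genes in ESC, EpiSC-like and day 7 cells, and 0.331, 0.329 and 0.277 over all genes. The median standard error of a difference was 0.357 for them and 0.292 over all genes, and the smallest difference called among all genes was 1.28 in the comparison of EpiSC-like cells with ESC. No smaller difference was called in that comparison.

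Between EpiSC-like cells and ESC, 3 of the 169 genes were called, or 1.78%, against 1.90% of all genes (345 genes). All 3 were higher, against 1.31% of all genes called higher (239) and 0.583% called lower (106). These shares are near the background. Centring each array on its median turned the split of all called genes to 184 higher and 148 lower. At an unadjusted p under 0.05, 16 of the 169 were higher, 9.47% against 9.75% of all genes, and 6 lower, 3.55% against 6.21%. The arrays of both groups did not overlap, with means at least 2-fold apart on the log2(signal + 16) scale, in 16 genes higher in EpiSC-like cells, 9.47% against 5.85% of all genes, and in 6 genes lower, 3.55% against 3.08%. The median difference of the 169 genes was 0.02, against 0.03 over all genes.

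Between day 7 and ESC, 1 of the 169 genes was called, 0.592%, against 1.04% of all genes (189 genes). It was higher, against 0.753% of all genes called higher (137) and 0.286% called lower (52), a split that became 92 and 82 with arrays centred on their medians. At an unadjusted p under 0.05, 16 were higher, 9.47% against 11.1% of all genes, and 11 lower, 6.51% against 7.20%. Arrays did not overlap, with means at least 2-fold apart, in 8 genes higher at day 7, 4.73% against 6.56% of all genes, and in 4 lower, 2.37% against 2.98%. The median difference was -0.05, against 0.02 over all genes.

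Between day 7 and EpiSC-like cells, limma called 0 of the 169 genes, against 0.0385% of all genes (7 genes, 0.0220% higher and 0.0165% lower). At an unadjusted p under 0.05, 9 were higher at day 7, 5.33% against 7.50% of all genes, and 18 lower, 10.7% against 6.60%. Arrays did not overlap, with means at least 2-fold apart, in 13 genes lower at day 7, 7.69% against 3.17% of all genes, and in 5 genes higher, 2.96% against 4.09%. The comparisons of EpiSC-like cells and of day 7 with ESC share the ESC arrays, and the 2 comparisons that involve EpiSC-like cells share those arrays, so their values are not independent.

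**Figure D2:**
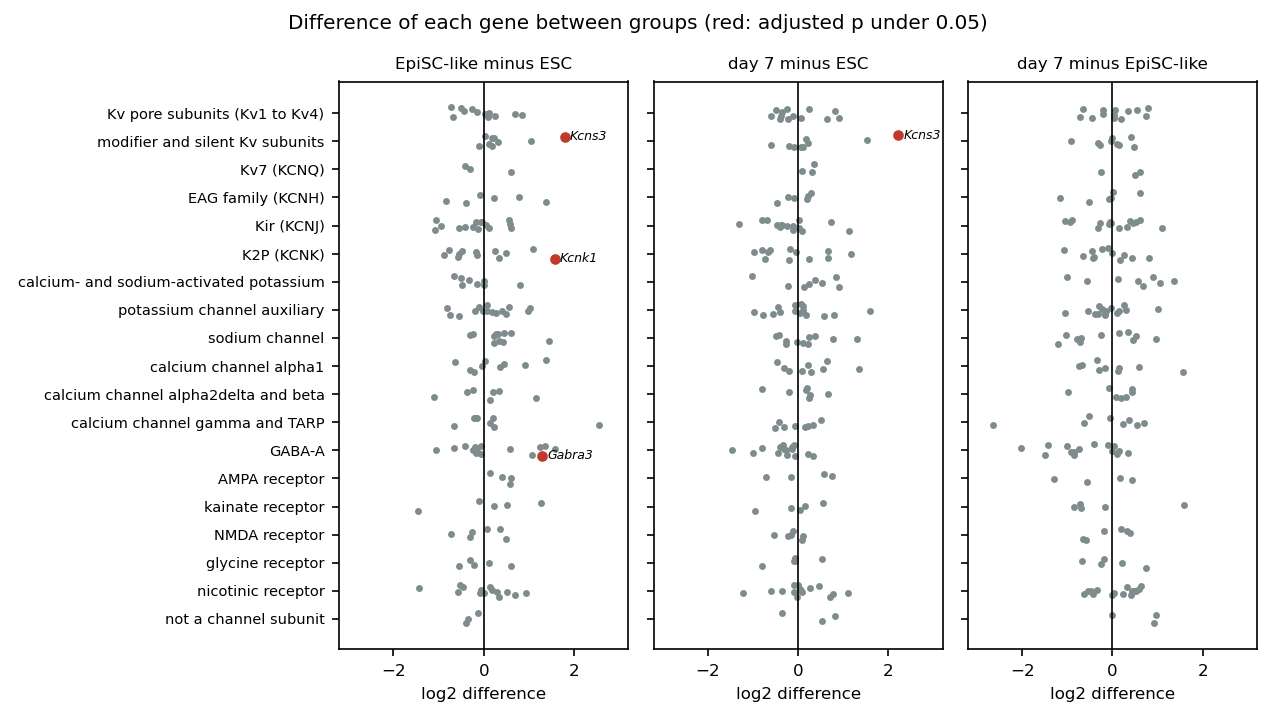
Differences in log2(signal + 16) of the 169 genes by family, in 3 panels (left, EpiSC-like cells against ESC; middle, day 7 against ESC; right, day 7 against EpiSC-like cells), with each point 1 gene and points in red called by limma. The points in red are Kcnk1, Kcns3 and Gabra3 in the left panel and Kcns3 in the middle one, and the uncalled gene furthest from 0 is Cacng8, at 2.56 on the left and -2.64 on the right.

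Among the 12 leak channel genes of the K2P family, whose subunits have tandem pore domains and pass a background potassium current, Kcnk1 gave the highest signal on any array among the 169 genes. Kcnk1 (Entrez 16525, TWIK1) read 839 and 674 in ESC, 2157 and 2369 in EpiSC-like cells and 1784 and 1625 at day 7. Both EpiSC-like arrays were the highest and both ESC arrays the lowest, without overlap between groups. It rose by 1.57 ± 0.24 in EpiSC-like cells (limma adjusted p = 0.0357), with 1.35 between the replicate 1 arrays and 1.79 between the replicate 2 arrays. Its difference at day 7 from ESC was 1.16 ± 0.24 (adjusted p = 0.0791), and from EpiSC-like cells -0.41 ± 0.24 (adjusted p = 0.505). A second Kcnk1 probe set was dimmer, at 203 and 226 in ESC, 406 and 644 in EpiSC-like cells and 591 and 544 at day 7, again lowest in ESC. With the replicate number as a block the difference was the same size and the adjusted p was 0.0600.

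Kcnk6 (TWIK2), a relative of Kcnk1, read 320 and 280 in ESC, 635 and 676 in EpiSC-like cells and 448 and 524 at day 7. Its order matched that of Kcnk1, with no overlap between any of the groups, and its difference in EpiSC-like cells was 1.09 ± 0.23 (adjusted p = 0.0756). Kcnk5 (TASK2), a leak channel opened by alkaline medium, read 1054 and 803 in ESC, 1780 and 965 in EpiSC-like cells and 1798 and 1195 at day 7. The 2 replicates of the EpiSC-like and day 7 groups lay far apart, and the EpiSC-like arrays overlapped the ESC arrays. Its differences from ESC were 0.50 ± 0.38 and 0.66 ± 0.38, not called. The median difference of the 12 genes was -0.16 in EpiSC-like cells and -0.18 at day 7 against ESC. A difference above 0 was seen in 5 genes in EpiSC-like cells and in 4 at day 7. Only 3 of the 12, Kcnk1, Kcnk5 and Kcnk6, reached the median level of all genes, and all 3 had differences above 0 in both comparisons. The family median and the counts of signs therefore rest mostly on dim genes, and do not show whether the family followed these 3.

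**Figure D3:**
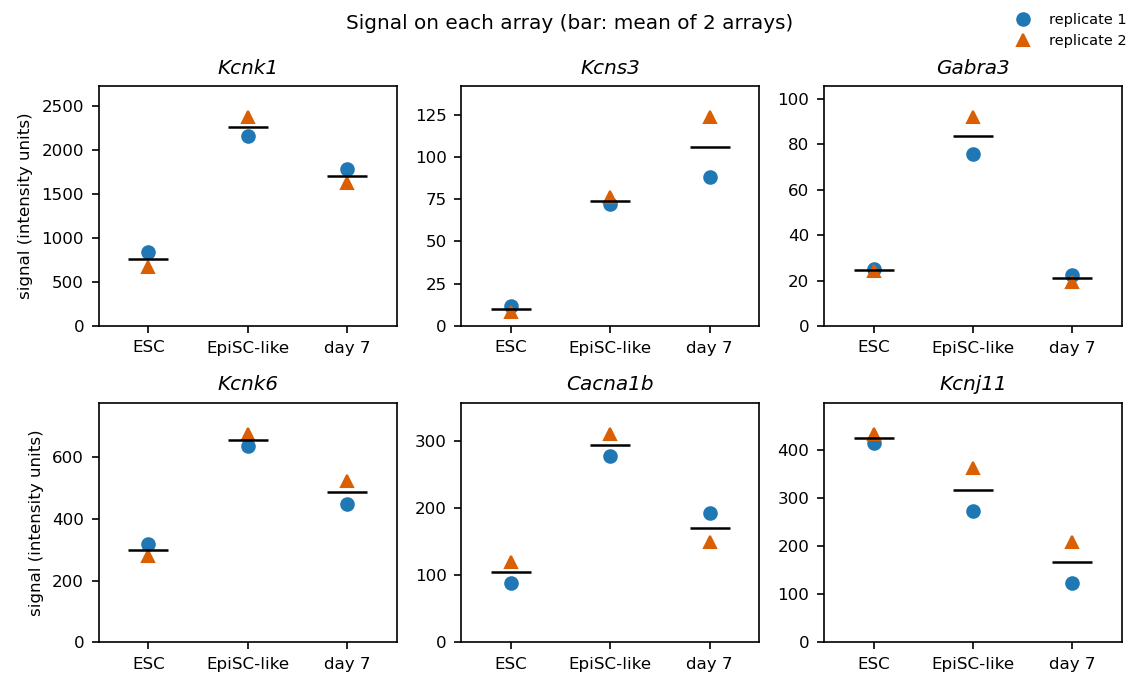
Signal on each array for 6 genes in ESC, EpiSC-like and day 7 cells, with replicate 1 as circles, replicate 2 as triangles and the mean of the 2 as a bar. Kcnk1, Kcns3 and Gabra3 were called; Kcnk6, Cacna1b and Kcnj11 were not, and the lowest Kcnk1 EpiSC-like array, 2157, lies above both ESC arrays.

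The modifier and silent Kv subunits do not form channels alone but change the gating of others. Of the 9 genes, Kcns3 (Entrez 238076) read 12 and 8.22 in ESC, 71.8 and 76.4 in EpiSC-like cells and 88.2 and 123 at day 7. Both ESC arrays lay far below all others, and the EpiSC-like arrays below the day 7 arrays. It rose by 1.79 ± 0.25 in EpiSC-like cells (limma adjusted p = 0.0315, 1.65 between the replicate 1 and 1.93 between the replicate 2 arrays) and by 2.21 ± 0.25 at day 7 (adjusted p = 0.0291, 1.89 and 2.52). With the replicate number as a block the adjusted p was 0.0587 and 0.0665. Kcns3 was dim, below the median level of all genes in every group. A second probe set read 9.30 and 3.50 in ESC, 25.2 and 3.41 in EpiSC-like cells and 31.4 and 42.7 at day 7, so that its groups overlapped in the EpiSC-like comparison, and with the mean of both probe sets the difference was 1.07 (adjusted p = 0.130). The size depended on the pseudocount, at 2.77 and 3.26 with 1 and 0.90 and 1.19 with 64. Kcns2 read 50.6 and 64.7, 57.8 and 69.2, and 55.7 and 39.9 in the 3 groups, with a difference of 0.11 in EpiSC-like cells that was not called. Kcng1, another silent subunit, was named after its values were seen: it read 7.46 and 14.7 in ESC, 21.7 and 65.6 in EpiSC-like cells and 86.2 and 41.9 at day 7. Both ESC arrays were the lowest, but its differences were not called (1.05, limma adjusted p = 0.327, and 1.52, limma adjusted p = 0.158). A second, dim Kcng1 probe set did not show this, with differences from ESC of -0.02 in EpiSC-like cells and -0.28 at day 7.

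The inward rectifiers (15 Kir genes) let potassium in more readily than out. Kcnj11, the pore of the ATP-sensitive channel, read 415 and 433 in ESC, 273 and 362 in EpiSC-like cells and 124 and 208 at day 7. The groups did not overlap, with ESC highest and day 7 lowest, and the difference was -1.31 ± 0.30 at day 7 from ESC (adjusted p = 0.103). Kcnj3, a subunit of the G-protein-gated channel, read 55.3 and 86.6 in ESC, 130 and 91.1 in EpiSC-like cells and 58.5 and 41.6 at day 7. Its differences were not called (0.55 in EpiSC-like cells). Another Kcnj3 probe set read 11.2 and 19.3, 133 and 67.9, and 18.8 and 3.72 in the 3 groups. There EpiSC-like cells differed from ESC by 1.85, and day 7 from EpiSC-like cells by -2.10. The remaining Kcnj3 probe sets, both dim, differed by 0.97 and 0.60 in EpiSC-like cells. Of the 15 genes, 2 were at least 2-fold lower in EpiSC-like cells than in ESC without overlap, against 3.08% of all genes. Both were dim, below the median level of all genes in every group. None of the 15 was called.

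The voltage-gated potassium channel genes had no called difference outside Kcns3. Kcnd1, which makes a transient outward current, read 280 and 175 in ESC, 419 and 323 in EpiSC-like cells and 359 and 196 at day 7, with differences of 0.69 ± 0.37 and 0.24 ± 0.37. Kcnh2 (hERG), which repolarises the heart, read 155 and 211 in ESC, 258 and 407 in EpiSC-like cells and 229 and 215 at day 7, with a difference of 0.79 ± 0.30 in EpiSC-like cells (adjusted p = 0.264). Kcnh3 read 171 and 225 in ESC, 133 and 161 in EpiSC-like cells and 138 and 140 at day 7. Both EpiSC-like arrays of Kcnh2 lay above both ESC arrays, and both Kcnh3 ESC arrays lay above all others.

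Kcna7, one of the brightest in the Kv1 to Kv4 group, read 126 and 169 in ESC, 103 and 164 in EpiSC-like cells and 85.0 and 144 at day 7, and the groups overlapped. In the M-current family, Kcnq1, Kcnq3 and Kcnq5 were dim, with signals from 2.10 to 49.2 over all arrays and differences no larger than 0.62. Among the calcium-activated channels, the small-conductance channel gene Kcnn1, which makes an afterhyperpolarising current, read 66.5 and 98.2 in ESC, 30.3 and 84.4 in EpiSC-like cells and 126 and 199 at day 7. Its relative Kcnn2 read 64.1 and 114, 110 and 51.3, and 118 and 145. The day 7 arrays of both were the highest, with no called difference. Of the auxiliary subunits, Kcnip2, which binds Kv4 channels, read 76.7 and 63.7 in ESC, 115 and 218 in EpiSC-like cells and 161 and 111 at day 7, and the difference in EpiSC-like cells was 1.02 ± 0.35 (adjusted p = 0.214). The probe sets disagreed, since another read 44.1 and 70.6, 33.2 and 26.1, and 10.2 and 45.4, a difference of -0.66. Kcnip3, of the same family, read 116 and 132, 84.5 and 131, and 119 and 141, and its groups overlapped.

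Sodium channel genes carry the upstroke of the action potential. None of the 11 was called, and none reached the median level of all genes. Scn3b, a beta subunit, read 45.6 and 66.6 in ESC, 79.1 and 69.8 in EpiSC-like cells and 96.8 and 257 at day 7. The 2 day 7 arrays differed by over 2-fold, and the day 7 difference from ESC was 1.30 ± 0.43 (adjusted p = 0.189). Scn2b read 78.2 and 19.7 in ESC, 149 and 137 in EpiSC-like cells and 47.6 and 57.4 at day 7. Both EpiSC-like arrays were the highest, with a difference of 1.45 ± 0.45 from ESC (adjusted p = 0.179), but neither of the other probe sets of the gene showed it: one read 69.9 and 66.8, 62.8 and 55.3, and 31.2 and 16.7 in the 3 groups and the other 57.4 and 88.8, 35.5 and 20.7, and 22.4 and 37.6.

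Calcium channels couple voltage to calcium entry, and none of their 24 genes was called. Cacna1b, the pore of the N-type channel of nerve terminals, read 88.2 and 120 in ESC, 277 and 311 in EpiSC-like cells and 192 and 149 at day 7. The groups did not overlap, and the difference in EpiSC-like cells was 1.38 ± 0.26 (adjusted p = 0.0596). Its 4 probe sets disagreed. One read 37.7 and 87.2, 186 and 169, and 75.6 and 118 in the 3 groups and another 30.9 and 31.1, 169 and 145, and 99.9 and 104. The fourth read 59.7 and 82.4, 18.6 and 13.2, and 26.6 and 24.1, higher in ESC. Cacna1a, the pore of the P/Q-type channel, read 331 and 272 in ESC, 229 and 156 in EpiSC-like cells and 201 and 225 at day 7. Its ESC arrays were the highest, and its difference in EpiSC-like cells was -0.62 ± 0.27 (adjusted p = 0.330).

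Auxiliary calcium channel subunits and the TARPs, relatives of the gamma subunit that traffic AMPA receptors, were mostly dim. Cacna2d2, an alpha2delta subunit, read 148 and 119 in ESC, 178 and 137 in EpiSC-like cells and 191 and 249 at day 7. Cacna2d1, the target of gabapentin, read 164 and 97.0, 151 and 132, and 106 and 213. The day 7 arrays of Cacna2d2 were the highest, the groups of Cacna2d1 overlapped, and neither was called. On the probe sets used, the beta subunits Cacnb1 and Cacnb2, which bring the pore to the membrane, differed from ESC in opposite directions. Neither was called, and both were named after their values were seen. Cacnb1 read 105 and 143 in ESC, 46.9 and 51.5 in EpiSC-like cells and 65.1 and 62.3 at day 7 (-1.09, adjusted p = 0.0859). Its other probe sets differed by -0.13, 0.31 and 0.37 in EpiSC-like cells, so the probe sets of Cacnb1 disagreed. Cacnb2 read 22.2 and 20.1, 78.6 and 56.7, and 22.3 and 29.5 (1.16, adjusted p = 0.0797). Cacng8, a TARP, was named after its values were seen: it read 30.9 and 5.14 in ESC, 176 and 163 in EpiSC-like cells and 34.5 and 1.60 at day 7. Both EpiSC-like arrays were far above the rest, with differences of 2.56 ± 0.57 against ESC (adjusted p = 0.0873) and -2.64 ± 0.57 for day 7 against EpiSC-like cells (adjusted p = 0.129). A second, dim Cacng8 probe set did not show this pattern. It read 5.05 and 5.29 in ESC, 2.84 and 9.01 in EpiSC-like cells and 4.51 and 2.72 at day 7. Cacng8 lies between Cacng7 and Cacng6 on the RefSeq map, and these neighbours, also TARP or gamma subunit genes, differed by 0.13 and 0.20 in EpiSC-like cells. A second Cacng6 probe set differed by 0.99 there and by -0.97 for day 7 against EpiSC-like cells, at 57.3 and 55.7 in EpiSC-like cells and 9.55 to 37.9 elsewhere, so the probe sets of Cacng6 disagreed. Cacng7 read 187 and 241, 276 and 199, and 154 and 136 in the 3 groups, and Cacng6 read 66.9 and 40.1, 54.5 and 71.0, and 55.1 and 64.5.

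GABA-A receptors are chloride channels opened by GABA, pentamers that usually include alpha and beta subunits. None of the 15 genes reached the median level of all genes, and the highest signal on any array was 166. Gabra3 (Entrez 14396) read 24.9 and 24.4 in ESC, 75.8 and 92.0 in EpiSC-like cells and 22.4 and 19.5 at day 7. Both EpiSC-like arrays were the highest, and the ESC and day 7 arrays lay close together. It rose by 1.29 ± 0.22 in EpiSC-like cells (limma adjusted p = 0.0492, 1.17 between the replicate 1 and 1.42 between the replicate 2 arrays, and 0.0706 with the replicate number as a block). Day 7 differed from EpiSC-like cells by -1.43 ± 0.22 (adjusted p = 0.0863) and from ESC by -0.14. A second, dimmer probe set read 4.45 and 7.40, 19.0 and 7.54, and 2.85 and 4.16 in the 3 groups, and the mean of both gave a difference of 0.84 (adjusted p = 0.119). With a pseudocount of 64 the difference was 0.74 (adjusted p = 0.0543).

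Of the 169 genes, 7 were at least 2-fold higher in EpiSC-like cells than in each of the other groups, with both EpiSC-like arrays above the other 4, 4.14% against 1.47% of all genes: Cacng8, Gabra3, Gabra4, Gabra5, Gabrr1, Kcnh8 and Scn2b. The count was made, and those of the 7 outside the naming rule were named, after these values were seen. Over all 15 GABA-A genes the median difference in EpiSC-like cells was -0.06, with 6 above 0 and a range from -1.07 to 1.57. Gabra4 read 34.2 and 49.9 in ESC, 145 and 166 in EpiSC-like cells and 60.3 and 7.49 at day 7 (difference from ESC 1.57 ± 0.53, adjusted p = 0.213), and on a second probe set its groups overlapped (15.6 and 4.42, 60.8 and 11.3, and 7.66 and 2.52). Gabra5, whose product marks extrasynaptic receptors of the hippocampus, read 11.7 and 16.9, 53.5 and 69.2, and 19.8 and 24.7 (1.35 ± 0.24, adjusted p = 0.0530). Gabrr1, a rho subunit best known from the retina, read 37.5 and 8.58, 109 and 43.7, and 19.1 and 10.8 (1.25 ± 0.49, adjusted p = 0.280). That the lower EpiSC-like array of each of these genes, on the probe set used, was above all ESC and day 7 arrays follows from the rule. Only Gabra3 among them and its GABA-A relatives was called. Kcnh8, a voltage-gated channel gene named after its values were seen, read 67.8 and 32.5 in ESC, 161 and 140 in EpiSC-like cells and 61.2 and 54.8 at day 7 (1.38 ± 0.31, adjusted p = 0.0898). Gabrd, whose product forms extrasynaptic receptors, was highest in ESC: it read 51.9 and 69.4 in ESC, 16.2 and 25 in EpiSC-like cells and 13.2 and 9.78 at day 7 (-1.07, adjusted p = 0.104, and -1.47, adjusted p = 0.0583), and it was named after its values were seen. A second, dim Gabrd probe set did not show this, at 7.36 and 8.28, 15.4 and 6.95, and 15.4 and 3.90 in the 3 groups. Gabrp read 88.9 and 83.3, 71.8 and 94.2, and 77.5 and 21.0, with no called difference. The neighbouring genes Gabra4 and Gabrb1 had differences of 1.57 and -0.17 in EpiSC-like cells, and Gabrg3 and Gabra5 of 1.07 and 1.35. The GABA-A neighbours of Gabra3 and Gabrr1 differed by -0.66 and -0.06. In the remaining neighbouring pairs the differences were 0.59 and -0.42, and -0.20 and -0.15. Gabrg3 was dim, at 20.2 and 3.32 in ESC and 36.9 and 42.1 in EpiSC-like cells, and was not called. Its other probe sets differed by 0.34, -0.05 and 0.46. Gabrb1 and Gabrg3 were named after their values were seen.

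**Figure D4:**
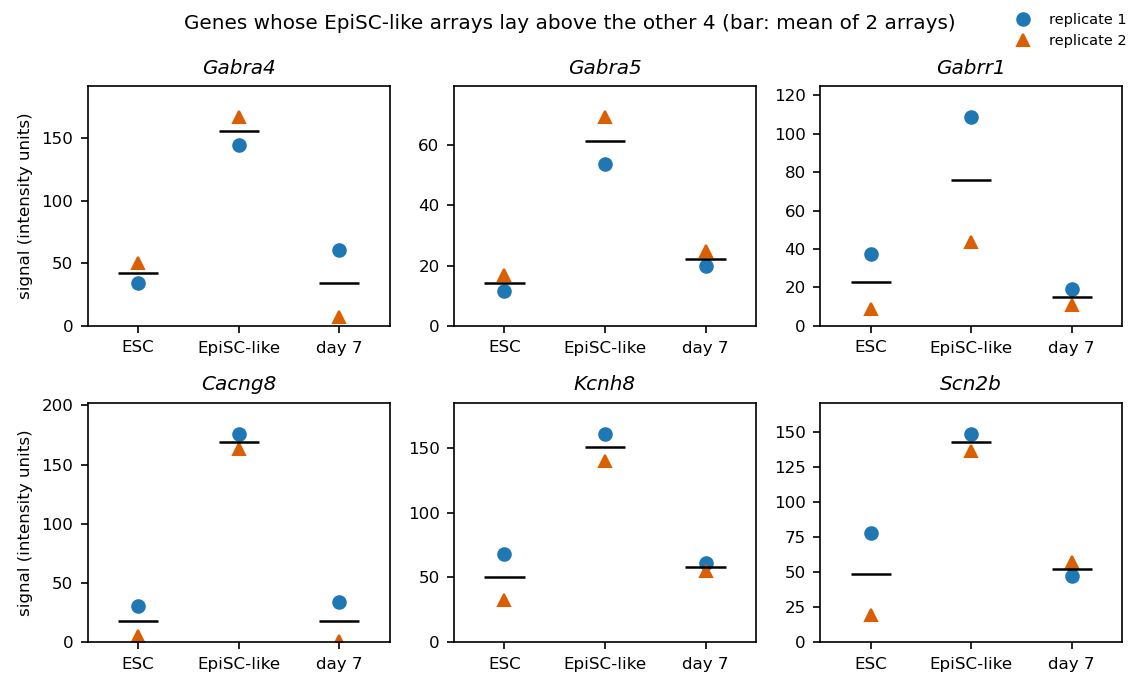
Signal on each array for the 6 genes, besides Gabra3, with both EpiSC-like arrays above the other 4, at least 2-fold against each other group. Circles mark replicate 1, triangles replicate 2 and a bar the mean of the 2. By this choice the EpiSC-like arrays sit above all others in each panel, with Gabrr1 at 109 and 43.7 and Cacng8 at 176 and 163.

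The other patterns of this kind, each with both arrays of a group beyond the other 4 and at least a 2-fold difference from each other group, held few genes. Grik3 was the 1 gene of this kind with both EpiSC-like arrays below the other 4 (0.592%, against 0.945% of all genes). By the same 2-fold rule both ESC arrays were highest in 2 genes, Chrna9 and Gabrd (1.18% against 1.07%), and lowest in 3, Kcng1, Kcnk1 and Kcns3 (1.78% against 2.73%). By that 2-fold rule both day 7 arrays were highest in 2 genes, Cacna1h and Kcnab3 (1.18% against 1.84%), and lowest in 0 (against 0.627%). Cacna1h and Kcnab3 were named after their values were seen. Cacna1h, the pore of a T-type channel that opens near the resting potential, read 25.3 and 30.7 in ESC, 30.5 and 15.1 in EpiSC-like cells and 67.4 and 133 at day 7. Kcnab3, a beta subunit of Kv channels, read 9.42 and 6.72 in ESC, 30.3 and 11.5 in EpiSC-like cells and 36.8 and 82.4 at day 7. A second Kcnab3 probe set read 4.82 and 8.82 at day 7, within the range of its other arrays. A second Cacna1h probe set read 13.3 and 9.86 in ESC, 3.59 and 10.3 in EpiSC-like cells and 4.10 and 24.3 at day 7. On that probe set the groups overlapped. In both genes, on the probe set used, replicate 2 of day 7 lay well above replicate 1, and their differences from ESC, 1.34 and 1.59, were not called (adjusted p = 0.128 and 0.112).

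Glutamate receptors carry fast excitation. Grik3, a kainate receptor subunit, was the brightest of the 15 glutamate receptor genes. It read 883 and 701 in ESC, 453 and 168 in EpiSC-like cells and 781 and 971 at day 7. The EpiSC-like arrays were the lowest but lay far apart, and the differences were -1.45 ± 0.45 against ESC (adjusted p = 0.179) and 1.59 ± 0.45 for day 7 against EpiSC-like cells (adjusted p = 0.201). Gria2, the AMPA receptor subunit that limits calcium entry, read 53.5 and 33.9 in ESC, 46.1 and 50.9 in EpiSC-like cells and 55.7 and 89.9 at day 7. Gria4, another AMPA subunit, read 38.9 and 53.5, 72.1 and 82.6, and 35.4 and 11.8, highest in EpiSC-like cells (0.59 ± 0.34 against ESC, adjusted p = 0.474). Grik5 read 16.5 and 14.1, 68.6 and 51.9, and 52.5 and 15.2 in the 3 groups, with a difference of 1.28 ± 0.39 in EpiSC-like cells (adjusted p = 0.177). Of the NMDA receptor genes, Grin2d read 84.2 and 106 in ESC, 96.4 and 24.1 in EpiSC-like cells and 80.8 and 43.8 at day 7, and Grin2b lay between 31.9 and 51.1 on the probe set used, while another of its probe sets ran from 6.99 to 70.6. No NMDA gene of the 6 differed by 2-fold without overlap. No glutamate receptor gene was called.

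Of the 5 glycine receptor genes, the beta subunit gene Glrb read 97.5 and 65.3 in ESC, 97.7 and 79.2 in EpiSC-like cells and 92.4 and 61.5 at day 7. Glra1, an alpha subunit gene, read 44.4 and 49.6, 38.3 and 18.6, and 25 and 16.2 (-0.54 ± 0.30 and -0.79 ± 0.30). Its second probe set went the other way, at 3.86 and 3.14 in ESC, 36.2 and 64.6 in EpiSC-like cells and 45.1 and 62.4 at day 7 (1.73 and 1.83), so Glra1 has no settled direction here. No glycine receptor gene was called. Among the 15 nicotinic receptor genes, Chrna7 and Chrna9 were the brightest. Chrna9, known from the hair cells of the inner ear, read 290 and 224 in ESC, 100 and 69.3 in EpiSC-like cells and 73.8 and 136 at day 7. Both ESC arrays were the highest, with differences of -1.44 ± 0.34 (limma adjusted p = 0.0994) and -1.21 ± 0.34 (limma adjusted p = 0.141). The other Chrna9 probe sets, both dim, did not show this, with differences of -0.11 and 0.16 in EpiSC-like cells. Chrna7, a calcium-permeable receptor of neurons, read 500 and 387, 647 and 492, and 557 and 348, with groups that overlapped and differences of 0.35 and 0.00. Of the noncoding transcripts, Kcnq1ot1, an imprinted RNA antisense to Kcnq1, read 296 and 228, 158 and 234, and 271 and 534, and Kcnmb4os1 and Kcnmb4os2 read 1.53 to 44.3 over all arrays.

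Other genes of the same physiology are given as counts. The 73 measured genes of other channels include connexins, transient receptor potential and chloride channels. Of the 73, 1 rose and 1 fell in EpiSC-like cells and 1 rose at day 7 against ESC. Over all genes, 1.31% were called higher and 0.583% lower in EpiSC-like cells, and 0.753% higher at day 7. Cachd1, which encodes a protein related to the alpha2delta subunits of calcium channels, was the 1 that rose. It read 270 and 158 in ESC, 3371 and 3107 in EpiSC-like cells and 1587 and 1299 at day 7, a rise of 3.87 and 2.70. Gjb5, a connexin gene, read 369 and 479, 46.7 and 27.1, and 293 and 356, and fell by 3.07 in EpiSC-like cells. Of 20 other transmitter receptor genes, 19 genes of transporters that set ion gradients and 40 scaffold and synaptic genes, limma called 0 in every comparison. At an unadjusted p under 0.05, which 15.96%, 18.3% and 14.1% of all genes passed in EpiSC-like cells against ESC, day 7 against ESC and day 7 against EpiSC-like cells, 15, 12 and 16 of the 73 other channel genes passed. Of the lists of 20, 19 and 40 genes, 2, 4 and 11 passed in EpiSC-like cells against ESC, 2, 2 and 8 at day 7 against ESC, and 3, 5 and 6 at day 7 against EpiSC-like cells. Of the 9 genes of REST and its corepressors, limma called 0, with 0, 2 and 0 at an unadjusted p under 0.05. Rest itself read 5389 and 5510 in ESC, 4451 and 3375 in EpiSC-like cells and 3842 and 3437 at day 7, with differences from ESC of -0.49 ± 0.24 and -0.58 ± 0.24, not called.

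The reporter gene and cell type markers were measured alongside. Pou5f1 read 7927 and 14055 in ESC, 6244 and 9923 in EpiSC-like cells and 6533 and 9062 at day 7, and Pecam1 read 728 and 343, 401 and 177, and 767 and 488. Of 8 naive pluripotency genes, 3 were lower in EpiSC-like cells than in ESC (Klf4, Tfcp2l1 and Esrrb). Of 14 neuron markers, Nsg2 rose and Stmn2 fell against ESC in both comparisons, and the summed signal of the 14 was 12907 and 17500 in ESC, 6533 and 6180 in EpiSC-like cells and 5752 and 10982 at day 7. Stmn2 alone made that fall: it read 8317 and 13364, 1472 and 1116, and 1459 and 2505, and the other 13 summed to 4590 and 4136 in ESC, 5061 and 5064 in EpiSC-like cells and 4294 and 8477 at day 7. The median difference of the 14 from ESC was 0.15 in EpiSC-like cells and 1.07 at day 7. Of 8 neural progenitor genes, 3 rose in EpiSC-like cells and 2 at day 7. For these lists the shares over all genes were 1.31% called higher and 0.583% lower in EpiSC-like cells against ESC. At day 7 against ESC they were 0.753% and 0.286%. Of 7 glial genes, Mbp rose at day 7 against ESC, and limma called 0 of 10 endoderm, 9 muscle and 4 primitive streak genes in every comparison. Against the 15.96%, 18.3% and 14.1% of all genes that passed an unadjusted p under 0.05, 2, 1 and 1 of these passed in EpiSC-like cells against ESC, 6, 1 and 2 at day 7 against ESC, and 4, 3 and 1 at day 7 against EpiSC-like cells. The summed signal of the 9 muscle genes was 773 to 1145 over all arrays. The summed signal of the 10 endoderm markers was 650 to 757 on the ESC and EpiSC-like arrays but 970 and 3989 on the 2 day 7 arrays, and the neuron marker Dcx read 78.3 and 604 there. Marker genes other than Pou5f1 and Pecam1 were named after their values were seen. The day 7 array with the higher endoderm and Dcx signals was replicate 2 in both cases. Scn3b, Cacna1h and Kcnab3 also read higher on that array, while Gabra4, Gabrp, Kcng1, Grin2d and Kcnk5 read higher on day 7 replicate 1. The part of other cells in the channel values was not tested.

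**Figure D5:**
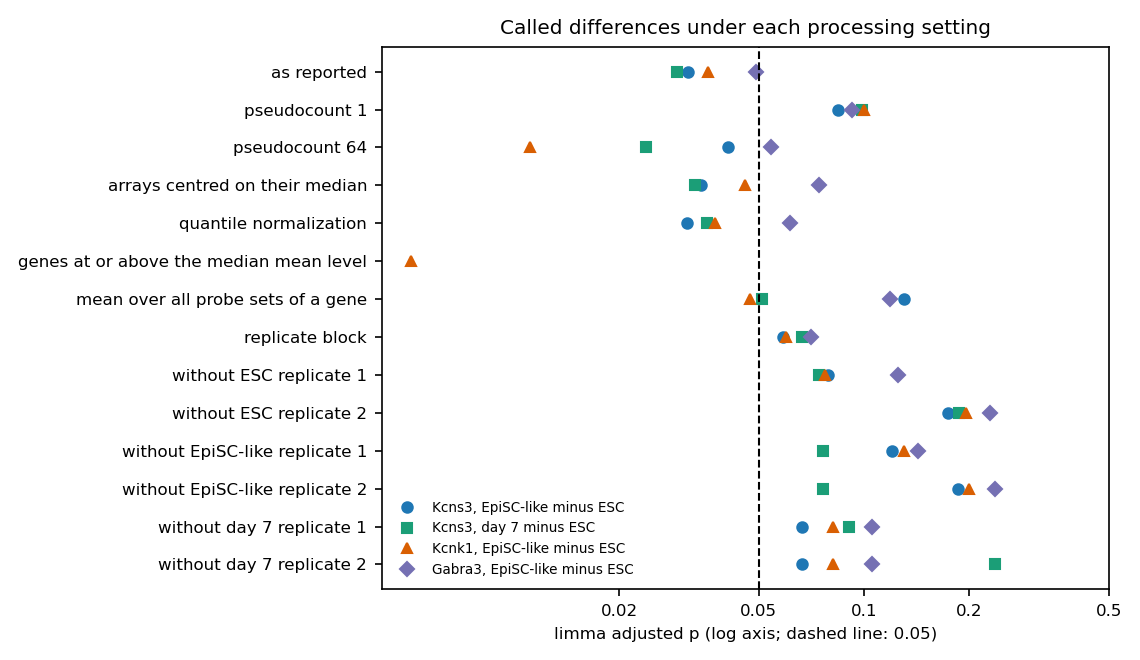
limma adjusted p of the 4 called differences under each processing setting, on a log axis, with the dashed line at 0.05. With the replicate number as a block all 4 lie at or above 0.0587.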

How the data were processed

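RNA from 6 sorted samples, 2 per group, was measured on Affymetrix 3' arrays. The values are linear signal intensity per probe set, as deposited. The submitters' processing notes name Affymetrix Expression Console, version 1; its algorithm and the genome build of the probe annotation are not given here by any source used. The deposited intensity values appear to have been scaled before deposition, since every array had a mean of 500.003 to 500.004 once the top and bottom 2% of probe sets were removed. Detection calls were not used here.

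Of 45101 probe sets, 64 controls were left out, and 34945 named 1 gene (932 named several). RefSeq identifiers (GRCm38.p6) matched 34741 of them and changed 0 symbols. Each of 18193 genes was represented by its brightest probe set over 6 arrays. The log2(signal + 16) values of all 6 arrays were fitted in limma (3.58.1, under R 4.3.3) with 3 group means, giving 3 residual degrees of freedom, and moderated with eBayes. Adjusted p-values are Benjamini-Hochberg over all genes. The script was tested on simulated data.

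Alternatives were pseudocounts of 1 and 64, arrays centred on their median, quantile normalization, genes at or above the median level, the mean of all probe sets, the replicate number as a block, and each array left out. The genes and the lists of other channel, receptor, synaptic and cell type genes were chosen with earlier results of these data known. Genes were named by rule: called genes, per comparison the 10 largest rises and falls among brighter genes, the 2 brightest of each family and all of families of 3 or fewer, called genes of the other channel lists, and Pou5f1, Pecam1 and Rest; others are said to be named after their values were seen. The number of arrays limits the precision.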

Additional observations from a re-analysis of the deposited data

How the results depend on the processing

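Of 1548 values of the named differences under the alternatives, 38 lost their call, 7 gained one and 0 reversed a call, while 53 of the 126 differences, none of them called, changed sign under at least 1 alternative. The calls rest on few degrees of freedom: leaving out any 1 array gave 0 to 63 called genes in the comparison of EpiSC-like cells with ESC (345 with all arrays), 0 to 10 between day 7 and ESC (189) and 0 between day 7 and EpiSC-like cells (7), and 0 of the 169 genes in each. With pseudocount 1 the counts of all genes were 0, 0 and 0, with pseudocount 64 they were 672, 679 and 206, and over genes at or above the median level 734, 843 and 315. Quantile normalization gave 0 for day 7 against EpiSC-like cells.

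Of the 169 genes, pseudocount 1 left 0 called in EpiSC-like cells and 0 at day 7 against ESC. Pseudocount 64 gave 5 (Cacna1b, Cacng8, Kcnk1, Kcnk6 and Kcns3) and 2 (Kcnk1 and Kcns3), and 1 (Cacng8) for day 7 against EpiSC-like cells. Over genes at or above the median level, day 7 against ESC had 2 (Kcnk1 higher, Kcnj11 lower), and with the mean of all probe sets 0. The call of Gabra3 was lost under every alternative in which it was tested.

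The median difference of the 169 genes in EpiSC-like cells was -0.13 with arrays centred on their median, as over all genes, and 0.43 over the 12 at or above the median level. At day 7 against ESC it was -0.011 with pseudocount 64, -0.26 with centred arrays, -0.090 with quantile normalization, 0.26 over the 12 brighter genes, 0.021 with all probe sets, and -0.050 to 0.013 with 1 array left out. For day 7 against EpiSC-like cells it was -0.41 over the brighter genes.

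Arrays share replicate numbers, but the labels do not say that a number marks a shared culture or batch. Deviations from the group means of arrays with the same number correlated across the 9097 brighter genes with r = 0.574 (ESC and EpiSC-like), 0.226 (ESC and day 7) and 0.290 (EpiSC-like and day 7). With the number as a replicate block, 0 genes were called in each comparison (lowest adjusted p 0.0506, 0.0665 and 0.124), and 0 of the 169.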
